A study of Equus caballus with 12 samples.

Results

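Genes of the spindle, the kinetochore and the microtubules were followed in mature horse oocytes that had or had not been vitrified. The genes were those of the deposited table whose name starts with KIF, TUBA, TUBB, TUBG, CEP and a digit, CENP, DYNC, DYNL, HAUS, TACC, CKAP, BUB, MAD1, MAD2, NUF2, NDC80 or SPC2, and 69 of the 11425 genes in the table met this rule. The table lists Ensembl identifiers only, and names were known for 2569 of them, from the study's own result and gene set tables. No gene with a name starting with MAD1 or MAD2 was among these. The libraries were made from pools of oocytes of slaughterhouse mares. FR oocytes were fresh and matured in vitro, VMAT oocytes were matured in vitro and then vitrified and warmed, and VIM oocytes (VGV in the sample labels) were vitrified while immature, warmed and then matured in vitro. All 3 groups were freed of cumulus cells and sampled with an extruded polar body, and they comprised 4 VIM, 3 VMAT and 5 FR libraries. Ages, breeds and the number of mares behind each pool were not given in the sources used here, so p-values measure the spread between pools.

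The spindle is built from α- and β-tubulin polymers that attach to chromosomes at kinetochores, which in turn sit on the centromere. Kinesins and dynein move along or take apart these polymers, augmin and the γ-tubulin complex start new ones, and the BUB proteins delay anaphase until every chromosome is attached. Mammalian oocytes assemble the meiotic spindle without centrioles, and in a metaphase II oocyte that spindle holds the chromosomes until fertilization. Vitrification is known for disturbing it, since tubulin polymers come apart in the cold. The comparisons asked whether the transcripts of this machinery differ in oocytes vitrified before or after maturation.

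The values are normalized counts, in which the authors divided the reads of each gene by 1 size factor per library. The libraries held 1636620 to 12166950 reads on genes, and 3 reads equalled 0.376 normalized counts in VMAT replicate 2, the deepest library, and 9.34 in VMAT replicate 1, the shallowest. The kit reads the 3′ end of each transcript, so the normalized counts were not divided by gene length. Of 18 oocyte markers, 10 could be named, and their summed normalized count was 8594 to 14184 in VIM, 7733 to 16315 in VMAT and 9740 to 15527 in FR libraries. Of 18 cumulus cell markers only HAS2 could be named, at 641 to 2144 in VIM, 254 to 1755 in VMAT and 462 to 1239 in FR, and the part of cumulus RNA in the results was not tested.

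The genes with a name had a direction of their own. The study's result tables were sorted by fold change, and the copies used here hold only their first rows. Genes lower than in FR were more often named, and whether the shortened tables led to this was not tested. In VIM vs. FR, the log2 fold change was below 0 for 59% of the genes with a name and for 53.1% of all genes tested, and in VMAT vs. FR for 59.6% and 49.7%. The 69 genes followed the genes with a name, with 40 and 39 below 0 in these comparisons, and 33 in VIM vs. VMAT (52.2% of all genes tested and 49.2% of the genes with a name). Directions against FR are therefore given as a description.

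The values of the 69 genes fell into a high and a low range. Of their 828 values, 211 were at 1000 or more and 350 from 100 to under 1000. Another 148 were above 0 but under 10, and 6 were 0. Values between these ranges were fewer, with 41 from 50 to under 100 and 72 from 10 to under 50. A gene was counted as present in a library at a normalized count of 50 or more. In reads, this level differed between libraries. CENPJ, with 19 reads in VMAT replicate 1, was counted as present (59.1), whereas CENPQ, with 241 reads in VMAT replicate 2, was not (30.2). A gene not counted as present could thus have many reads. Counted in this way, 39 to 62 of the 69 genes were present per library, with the fewest in VMAT replicate 1 and the most in VMAT replicate 2. In VIM libraries 40 to 57 genes were present and in FR libraries 52 to 56. The shares were 56.5% to 89.9%, against 53.1% to 85.2% of all genes with a name and 20.4% to 36% of the whole table in the same libraries. Presence therefore moved with the library in all 3 sets of genes.

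**Figure D1:**
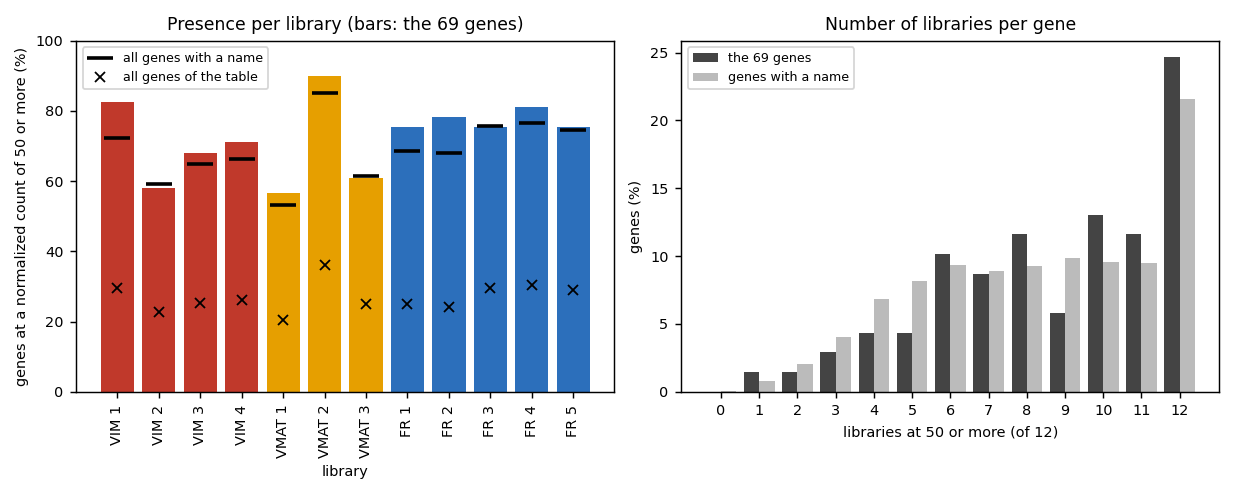
Left, share of the 69 genes (bars, coloured by group), of all genes with a name (dashes) and of all genes in the table (crosses) at a normalized count of 50 or more in each library. Right, share of genes by the number of libraries in which they reached 50. VMAT 1 holds the fewest of the 69 genes (39) and VMAT 2 the most (62), and 17 genes reach 50 in all 12 libraries.

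Of the 69 genes, 17 (24.6%) were present in all 12 libraries. This share was close to that of the genes with a name (21.6%), and it was 6.04% for the table. The 17 genes were not all even in level, and KIF2C ranged from 68.3 to 3793. They comprised the kinetochore genes NDC80, SPC25, CENPE, CENPF and CENPH, the checkpoint gene BUB3 and the dynein subunit DYNC1LI2. The kinesins among them were KIF14, KIF15, KIF18A, KIF20B, KIF2C and KIF5B. The others were the spindle proteins TACC3 and CKAP2 and the centrosomal proteins CEP57 and CEP152. The other 52 genes fell below 50 in at least 1 library, and 17 of them were present in 6 libraries or fewer. Most of the spread lay inside the groups. The share of the variance of log2 values that lay between the 3 groups had a median of 11.7% over the 69 genes, against 13.1% over the genes with a name.

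**Figure D2:**
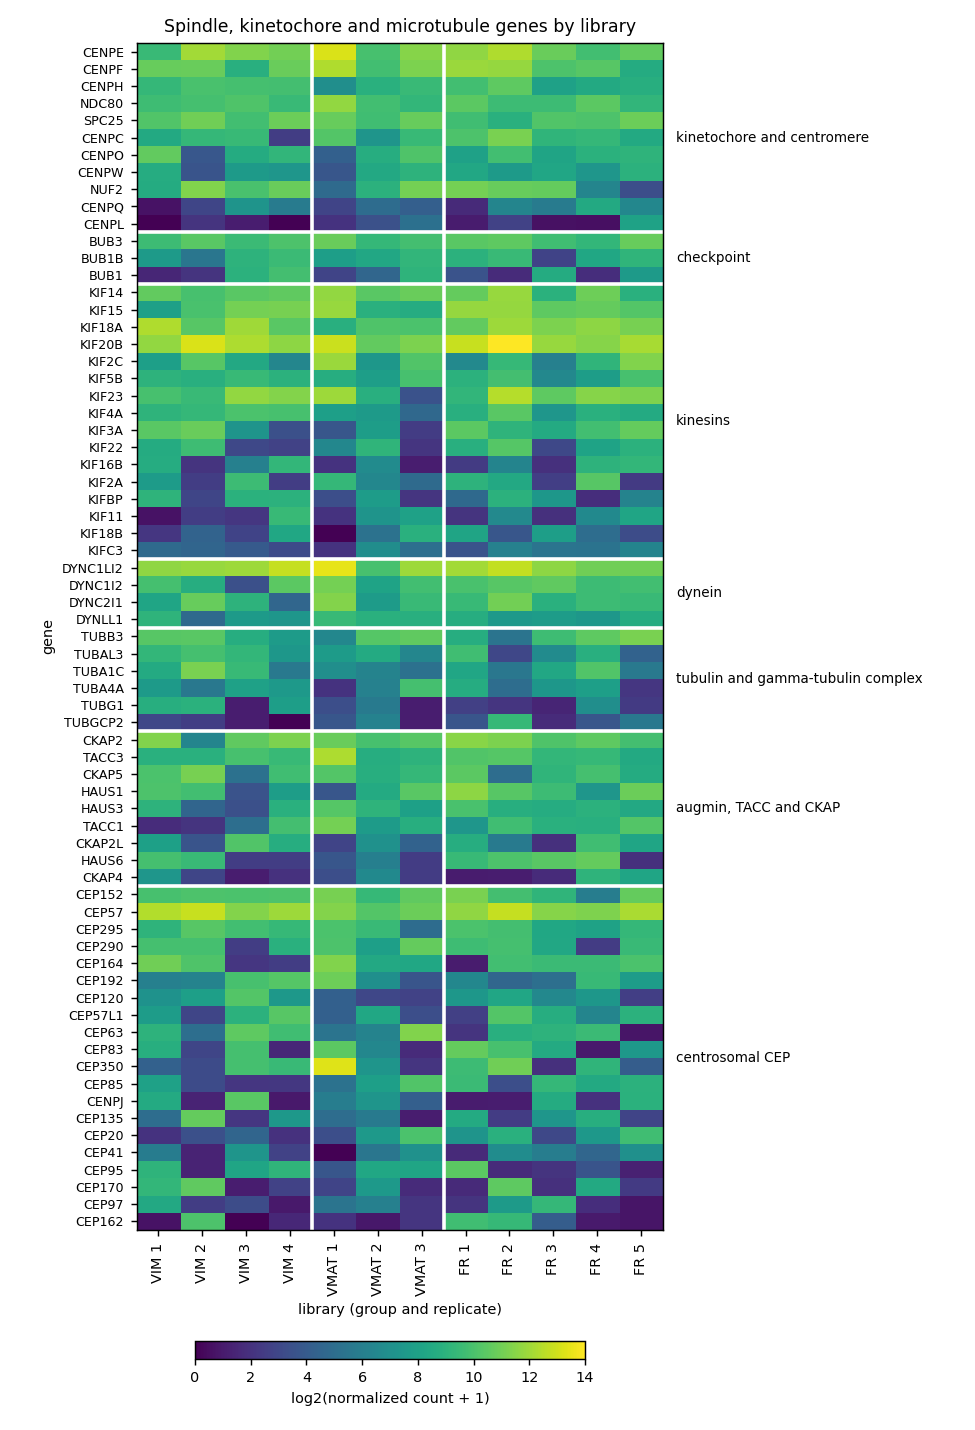
Heatmap of log2(normalized count + 1) for the 69 genes (rows, by role and then by the number of libraries in which they reach 50) in the 12 libraries (columns, by group). The 17 genes present in every library form unbroken light rows, such as NDC80, KIF20B and CEP57, whereas others, such as BUB1, change between dark and light within each group.

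Among kinetochore genes, SPC25 and NDC80 were the most even. Both encode subunits of the NDC80 complex, which binds the end of the microtubule. SPC25 (ENSECAG00000024519) had normalized counts of 1187, 2033, 871 and 1865 in VIM, of 1693, 820 and 1720 in VMAT, and of 840, 479, 1176, 1107 and 1852 in FR, always in replicate order. These groups overlap throughout, and the standard deviation of the log2 values over the 12 libraries was 0.63. NDC80 was similar, at 3355 in VMAT replicate 1 and at 592 to 1431 in all other libraries. Their partner NUF2 (ENSECAG00000009163) was at 385, 2611, 997 and 1816 in VIM, at 28, 517 and 2116 in VMAT, and at 2126, 1697, 1626, 83.2 and 9.31 in FR. Low values of NUF2 were thus found in a vitrified and in a fresh library, although NDC80 and SPC25 were present in both. All 3 subunits were present in 10 of 12 libraries.

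CENPE, a kinesin that carries chromosomes to the metaphase plate, ranged from 718 to 9426, and CENPF, a kinetochore protein of late G2 and mitosis, from 397 to 5237. The inner kinetochore genes other than CENPH were less even. CENPH was at 118 to 1477 and present in every library, CENPC, which ties the centromere to the outer kinetochore, fell to 4.89 in VIM replicate 4, and CENPO and CENPW fell to 11.4 to 18.7 in VIM replicate 2 and VMAT replicate 1. CENPQ was present in 2 VIM, 0 VMAT and 4 FR libraries, though it had 241 reads in VMAT replicate 2. CENPL was present only in FR replicate 5, at 266, and reached 35.4 at most in the other libraries. All 6 of these inner kinetochore genes were present together in a single library, FR replicate 5.

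The checkpoint genes differed in the same way. BUB3 (ENSECAG00000010047), the scaffold that brings its partners to the kinetochore, had the smallest standard deviation of all 69 genes, 0.55 on the log2 scale. Its normalized counts were 759, 1387, 750 and 1080 in VIM, 1768, 639 and 885 in VMAT, and 1389, 1470, 835, 625 and 1717 in FR. BUB1B, which encodes the checkpoint protein BUBR1, was present in 10 libraries and low in VIM replicate 2 (44) and FR replicate 3 (6.16). BUB1 (ENSECAG00000017103), the kinase, was at 1.84, 3.26, 516 and 906 in VIM, at 6.22, 23.3 and 540 in VMAT, and at 10.8, 2.29, 386, 2.52 and 200 in FR. Each group thus held libraries well above 50 and libraries close to the limit of 3 reads.

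**Figure D3:**
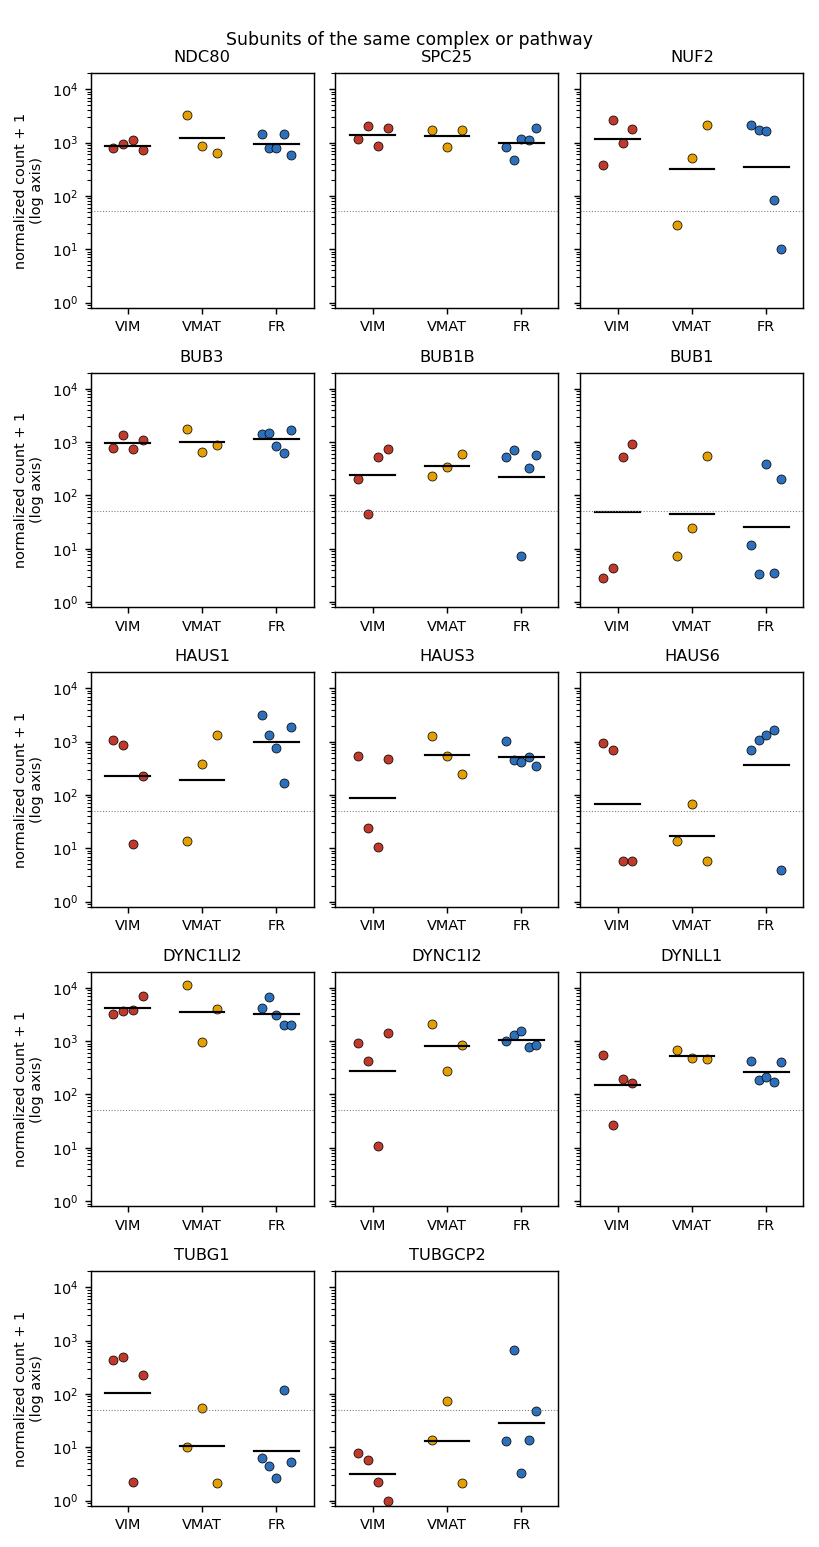
Normalized count + 1 (log axis) of subunits of the same complex or pathway in each library, by group, with the mean of the log values as a bar and a dotted line where the count reaches 50. NDC80, SPC25, BUB3 and DYNC1LI2 stay above the line in all 12 libraries, whereas NUF2, BUB1, HAUS6 and TUBG1 lie on both sides of it within a group.

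Several kinesins of the spindle and of cytokinesis were present in every library. KIF20B, a motor of the late spindle, was at 1602 to 16256, KIF15, which helps to keep the spindle bipolar, at 244 to 3684, and KIF14, a motor of cytokinesis, at 477 to 3672. For KIF14 (ENSECAG00000024694) the values were 1573, 971, 1356 and 1547 in VIM, 3339, 1377 and 1791 in VMAT, and 1666, 3672, 493, 1902 and 477 in FR, and the groups overlapped. KIF2C, which takes apart microtubules at the centromere, ranged from 68.3 to 3793, and KIF5B, a cargo motor, from 92.9 to 987. KIF11, the motor that pushes spindle poles apart, was present in 6 libraries, at 698 in VIM replicate 4 and at 0.614 to 4.89 in the other VIM libraries. KIF2A was present in 7 libraries, KIF22 in 8, KIFBP, a kinesin-binding protein, in 7, KIF18B in 4 and KIFC3 in 3. KIF16B (ENSECAG00000007559), a motor of endosomes, varied most among the kinesins, at 405, 3.26, 66.3 and 610 in VIM, 3.11, 105 and 1.18 in VMAT, and 4.31, 80.1, 2.8, 522 and 627 in FR. For KIF16B every group reached from a few counts to over 100.

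Dynein, the motor that focuses spindle poles, was present in nearly all libraries. DYNC1LI2 (ENSECAG00000020218) was at 3282, 3723, 3881 and 6984 in VIM, 11246, 979 and 3930 in VMAT, and 4267, 6646, 3110, 1979 and 1966 in FR, so that both ends of its range were in VMAT. DYNC1I2 (ENSECAG00000007660), an intermediate chain, was at 936, 424, 9.64 and 1441 in VIM, 2138, 276 and 851 in VMAT, and 1022, 1295, 1548, 788 and 859 in FR, with a single low library, VIM replicate 3. DYNLL1 was low in VIM replicate 2 (26.1) and DYNC2I1, of the dynein of cilia, in VIM replicate 4 (23.5). The single low library was thus a VIM library for each of these 3 genes, but not the same one.

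Tubulin genes were not present in every library. TUBB3 (ENSECAG00000012818), a β-tubulin, was at 1340, 1387, 415 and 201 in VIM, 87.1, 1248 and 1541 in VMAT, and 426, 41.2, 803, 1481 and 2369 in FR. The α-tubulin genes TUBA1C and TUBA4A ranged from 36.6 to 2354 and from 3.11 to 927, and TUBAL3 from 6.86 to 950. Whether reads were split between similar tubulin genes was not tested. TUBG1 (ENSECAG00000027735), the γ-tubulin from which microtubules start, was at 438, 497, 1.21 and 229 in VIM, 9.34, 54.4 and 1.18 in VMAT, and 5.39, 3.43, 1.68, 118 and 4.3 in FR. It was present in 3 of 4 VIM, 1 of 3 VMAT and 1 of 5 FR libraries, and VIM and FR overlapped. For TUBG1 the log2 fold change of VIM from FR was 3.57 ± 2.24, standard error (limma adjusted p = 0.902, exact two-sided permutation test, p = 0.111). TUBGCP2, its partner in the γ-tubulin complex, was present only in VMAT replicate 2 (74) and FR replicate 2 (673).

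Augmin starts new microtubules from the side of old ones, which matters in a spindle without centrioles. Its subunits HAUS1, HAUS3 and HAUS6 were present together in 6 libraries, of which 4 were FR, and all 3 were below 50 in VIM replicate 3. TACC3 (ENSECAG00000011380), which steadies spindle microtubules, was at 478, 476, 976 and 699 in VIM, 4963, 415 and 536 in VMAT, and 1187, 1255, 606, 656 and 367 in FR. Its value in VMAT replicate 1 stood above all others, and the rest overlapped. CKAP5, the polymerase that works with TACC3, was present in 10 libraries, and CKAP2 in 12, at 83.1 to 2891. CKAP2L was present in 8 libraries and CKAP4, a protein of the endoplasmic reticulum in spite of its name, in 4.

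The 20 centrosomal genes were the least even group, with a median of 7.5 libraries per gene. CEP57 (ENSECAG00000010938), which organizes the material around centrioles, was at 5439, 7278, 2732 and 3974 in VIM, 2742, 1226 and 1824 in VMAT, and 3270, 7039, 2846, 2530 and 4750 in FR. The VMAT libraries reached into the lower part of the other groups (log2 fold change of VMAT from FR -1.05 ± 0.65, standard error; exact two-sided permutation test, p = 0.0714). CEP152, which recruits the kinase of centriole duplication, was at 60.0 in FR replicate 4 and at 580 to 2358 in the other libraries. CEP295 was present in 11 libraries, CEP290 in 10, CEP164 and CEP192 in 9 each, CEP57L1, CEP63 and CEP83 in 8 each and CEP350 in 7. CENPJ, a centriole protein, and CEP135, CEP41 and CEP95 were present in 6 libraries each, CEP170 in 5 and CEP97 in 4. CEP162 (ENSECAG00000022698), a protein of the base of cilia, varied most of all 69 genes, at 0.614, 1084, 0 and 1.96 in VIM, 3.11, 0.877 and 3.54 in VMAT, and 827, 663, 16.8, 1.01 and 0.716 in FR. It was present in 3 libraries, VIM replicate 2 and FR replicates 1 and 2.

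All 69 genes passed the filter on low values and were tested in the 3 comparisons. In limma, 0 of them passed both a Benjamini-Hochberg adjusted p of 0.05 and a change of 1 on the log2 scale in either direction, as did 0% of all genes tested in each comparison. Log2 fold changes (log2FC) are given ± their standard errors. Exact permutation p-values were not adjusted over the 69 genes. The smallest adjusted p among the 69 genes was 0.902 for VIM against FR, 0.95 for VMAT against FR and 0.967 for VIM against VMAT. The edgeR quasi-likelihood test on the reads recovered from the normalized counts called 0 of them as well, against 0.012% of all genes tested higher in VMAT than in FR, 0.0131% lower in VIM than in VMAT (0.0389% of the genes with a name) and 0% otherwise. DESeq2 on these reads called 1 of them lower and 0 higher for VIM against FR, where it called 4.52% of all genes tested lower and 2.35% higher (3.19% and 0.817% of the genes with a name). For VMAT against FR it called 2 lower and 0 higher, where the background was 2.1% and 2.17% (1.48% and 0.701%). For VIM against VMAT it called 1 lower and 2 higher, where the background was 2.19% and 1.68% (0.817% and 1.25%). The median standard error of the log2FC over the 69 genes was 1.43, 1.55 and 1.73 in the 3 comparisons.

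**Figure D4:**
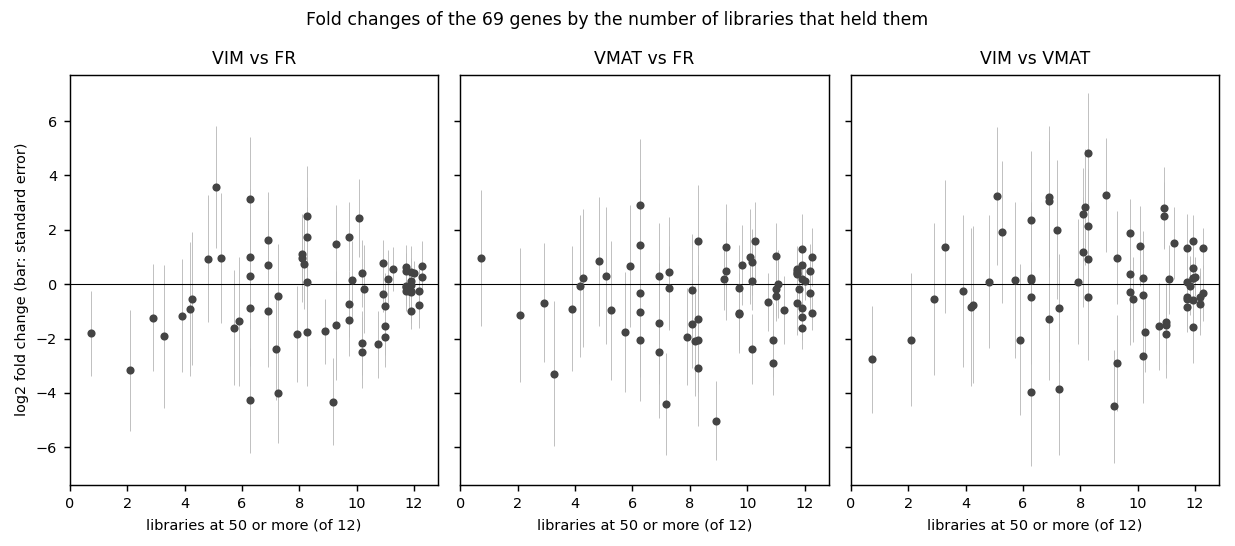
Log2 fold change (bars, standard error) of each of the 69 genes in the 3 comparisons, by the number of libraries in which the gene reaches a normalized count of 50, with small horizontal shifts between roles. Genes present in all 12 libraries lie between -1.62 and 1.59, both KIF18A, and the fold changes furthest from 0, such as -5.02 for KIF3A between VMAT and FR, belong to genes missing from some libraries.

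In VIM vs. FR, TACC1, CEP20 and CEP85 were the genes at an unadjusted p under 0.05 in limma, all 3 lower in VIM, and 0 genes were higher. The background was 1.66% of all genes tested lower and 2.12% higher, and 3.27% and 1.75% of the genes with a name. The median log2 fold change was -0.23 over the 69 genes, -0.27 over the genes with a name and -0.12 over all genes tested. Restricted to the 24 genes named in the gene set tables, the median was 0.06. All but 6 of these 24 were also named in the result tables, and whether this shorter list has a direction of its own was not tested. No gene had VIM and FR values that did not overlap, where the background was 0.639% lower and 0.952% higher (0.934% and 0.662% of the genes with a name).

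TACC1 (ENSECAG00000014842), a relative of TACC3 that binds microtubules, had normalized counts of 2.46, 3.26, 32.5 and 889 in VIM, 2132, 206 and 442 in VMAT, and 162, 837, 465, 463 and 1216 in FR. It was thus present in every VMAT and FR library and in 1 of 4 VIM libraries. Against FR, VIM had a log2FC of -4.32 ± 1.61 (limma adjusted p = 0.902; exact two-sided permutation test, p = 0.0556), and against VMAT one of -4.49 ± 2.08 (limma adjusted p = 0.967; exact test, p = 0.143). On the recovered reads the difference was smaller. Against FR the log2FC was -1.48 with DESeq2 (adjusted p = 0.738) and -1.50 with edgeR, and against VMAT it was -2.002 (adjusted p = 0.602) and -1.56.

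CEP20 (ENSECAG00000016999), a protein of centriolar satellites that takes part in the assembly of cilia, was at 3.07, 9.78, 22.9 and 2.93 in VIM, 9.34, 181 and 1036 in VMAT, and 153, 478, 7.28, 174 and 840 in FR. It was present in no VIM library, with 3 to 19 reads in each, but also low in VMAT replicate 1 and FR replicate 3. VIM differed from FR by a log2FC of -4.28 ± 1.94 (limma adjusted p = 0.902; exact two-sided permutation test, p = 0.0317) and from VMAT by -3.96 ± 2.72 (exact test, p = 0.0857). Between VMAT and FR the log2FC was -0.31 ± 1.75. DESeq2 called CEP20 lower in VIM than in FR (log2FC -5.14, adjusted p = 0.00377) and than in VMAT (-5.41, adjusted p = 0.0251).

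CEP85 (ENSECAG00000013640), a centrosomal protein that restrains the separation of centrosomes, was at 257, 8.15, 3.62 and 3.91 in VIM, 37.3, 235 and 1183 in VMAT, and 735, 9.15, 640, 356 and 503 in FR. A single VIM library was high and a single FR library low, and the log2FC of VIM from FR was -4.00 ± 1.84 (limma adjusted p = 0.902; exact two-sided permutation test, p = 0.0556). HAUS3 (ENSECAG00000004593) was at 532, 22.8, 9.64 and 463 in VIM, 1251, 544 and 249 in VMAT, and 1005, 444, 409, 519 and 346 in FR. Its values in FR lay close together, whereas the VIM libraries were split into a pair at the FR level and a pair far below. Their log2FC of -2.51 ± 1.31 (limma adjusted p = 0.902; exact two-sided permutation test, p = 0.111) became -1.49 without VIM replicate 3.

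In VMAT vs. FR, KIF3A, KIF23, HAUS6 and KIF18A were at an unadjusted p under 0.05 in limma, all lower in VMAT, and 0 genes were higher. The background was 1.22% of all genes tested lower and 2.41% higher, and 3.62% and 0.895% of the genes with a name. Values of KIF3A and KIF18A did not overlap and were lower in VMAT, where the background was 1.23% (2.41% of the genes with a name), and those of DYNLL1 did not overlap and were higher, where it was 1.96% (0.623%). The median log2 fold change was -0.17 over the 69 genes, -0.31 over the genes with a name and 0.01 over all genes tested, and 0.15 over the 24 genes of the gene set tables.

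KIF3A (ENSECAG00000024644), a motor of transport within cilia, had normalized counts of 1362, 1804, 153 and 9.78 in VIM, 12.4, 225 and 4.72 in VMAT, and 1445, 541, 381, 870 and 1629 in FR. All VMAT libraries were below all FR libraries, and VIM libraries lay in both ranges. As a share of the reads on genes, VMAT and FR still did not overlap. VMAT replicate 2 (1793 of 12166950) was then only slightly below FR replicate 3 (680 of 4331042), so the width of the gap depended on the size factors. The log2FC of VMAT from FR was -5.02 ± 1.45 (limma adjusted p = 0.95), and the exact two-sided permutation p of 0.0179 was the smallest that these group sizes allow. DESeq2 gave -3.68 with an adjusted p of 0.105. VIM differed from FR by -1.74 (exact two-sided permutation test, p = 0.357).

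KIF18A (ENSECAG00000016155), a kinesin that dampens the movements of chromosomes at the metaphase plate, differed by less but was present everywhere. Its normalized counts were 5110, 1309, 4142 and 1368 in VIM, 457, 1145 and 1066 in VMAT, and 1574, 3982, 2371, 3207 and 2208 in FR. In normalized counts, the VMAT libraries were below all libraries of the other groups. As a share of the reads on genes, the groups overlapped. VMAT replicate 2, with 9143 of 12166950 reads, was then above FR replicate 1 (1460 of 2833957) and VIM replicate 4 (1399 of 2964979). The separation thus depended on the size factors. VMAT differed from FR by a log2FC of -1.62 ± 0.77 (limma adjusted p = 0.95; exact two-sided permutation test, p = 0.0179), and VIM from VMAT by 1.59 ± 0.94 (exact test, p = 0.0857). Both comparisons use the same VMAT libraries.

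KIF23 (ENSECAG00000014536), a motor of the central spindle, was at 954, 706, 3339 and 2748 in VIM, 3890, 463 and 10.6 in VMAT, and 602, 5525, 1488, 2772 and 2505 in FR. The log2FC of -2.88 ± 1.19 between VMAT and FR (limma adjusted p = 0.95; exact two-sided permutation test, p = 0.196) rested on VMAT replicate 3 and was -0.60 without it. Likewise, that of 2.52 ± 1.24 between VIM and VMAT (exact two-sided permutation test, p = 0.314) was 0.23 without this library.

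HAUS6 (ENSECAG00000014686), the augmin subunit that recruits γ-tubulin, was at 939, 704, 4.82 and 4.89 in VIM, 12.4, 66.1 and 4.72 in VMAT, and 696, 1076, 1350, 1626 and 2.86 in FR. All FR libraries but replicate 5 were above all VMAT libraries. FR replicate 5 and VMAT replicates 1 and 3 held 4 reads each, so their order in normalized counts came from the size factors. VMAT differed from FR by a log2FC of -4.40 ± 1.88 (limma adjusted p = 0.95; exact two-sided permutation test, p = 0.143). DESeq2 called HAUS6 (log2FC -5.15, adjusted p = 0.0269) and also CEP162 (-6.98, adjusted p = 0.0164), whose FR values lay at 827 and 663 in a pair of libraries and at 16.8 or less in the rest.

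DYNLL1 (ENSECAG00000008104), a light chain of dynein, was at 557, 26.1, 196 and 163 in VIM, 688, 472 and 463 in VMAT, and 428, 183, 215, 171 and 412 in FR. The lowest VMAT library was thus only slightly above the highest FR library. As a share of the reads on genes, the groups overlapped, with VMAT replicate 1 (221 of 1636620) below FR replicate 1 (397 of 2833957). The log2FC of VMAT from FR was 1.03 ± 1.22 (limma adjusted p = 0.971; exact two-sided permutation test, p = 0.0357).

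Between VIM and VMAT, CEP120 and KIF23 were at an unadjusted p under 0.05 in limma with higher values in VIM, and TACC1 with lower values. The background was 0.97% of all genes tested higher and 2.01% lower, and 2.3% and 1.6% of the genes with a name. Values of CEP120, KIF4A and KIF18A were higher in VIM without overlap, where the background was 1.72% (2.88% of the genes with a name), and 0 genes were lower without overlap, where it was 2.78% (1.99%). The median log2 fold change was 0.09 over the 69 genes, 0.02 over the genes with a name and -0.08 over all genes tested, and it was -0.16 over the 24 genes of the gene set tables.

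CEP120 (ENSECAG00000021916), which is needed for centrioles to lengthen, had normalized counts of 139, 238, 1212 and 176 in VIM, 18.7, 7.01 and 5.9 in VMAT, and 170, 309, 91.3, 167 and 5.01 in FR. It was present in all VIM libraries, in no VMAT library and in 4 of 5 FR libraries, though it had 56 reads in VMAT replicate 2. VIM differed from VMAT by a log2FC of 4.82 ± 2.20 (limma adjusted p = 0.967), and the exact two-sided permutation p of 0.0286 was the smallest possible. VMAT differed from FR by -3.08 ± 2.15 (exact two-sided permutation test, p = 0.125). DESeq2 called CEP120 (log2FC 5.46, adjusted p = 0.00645) and TUBA1C (3.52, adjusted p = 0.0498) higher in VIM than in VMAT. The groups overlapped for TUBA1C, at 371, 2354, 701 and 49.9 in VIM and 121, 76.6 and 36.6 in VMAT. Its limma log2FC was 2.57 ± 1.72 (limma adjusted p = 0.967, exact two-sided permutation test, p = 0.143).

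KIF4A (ENSECAG00000010859), a motor that sits on chromosome arms, was at 541, 631, 1056 and 960 in VIM, 243, 197 and 25.9 in VMAT, and 454, 1393, 162, 467 and 374 in FR. The lowest VIM library was above the highest VMAT library, and FR reached across both groups. VIM differed from VMAT by a log2FC of 2.81 ± 1.48 (limma adjusted p = 0.967; exact two-sided permutation test, p = 0.0286), and 1.81 without VMAT replicate 3.

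**Figure D5:**
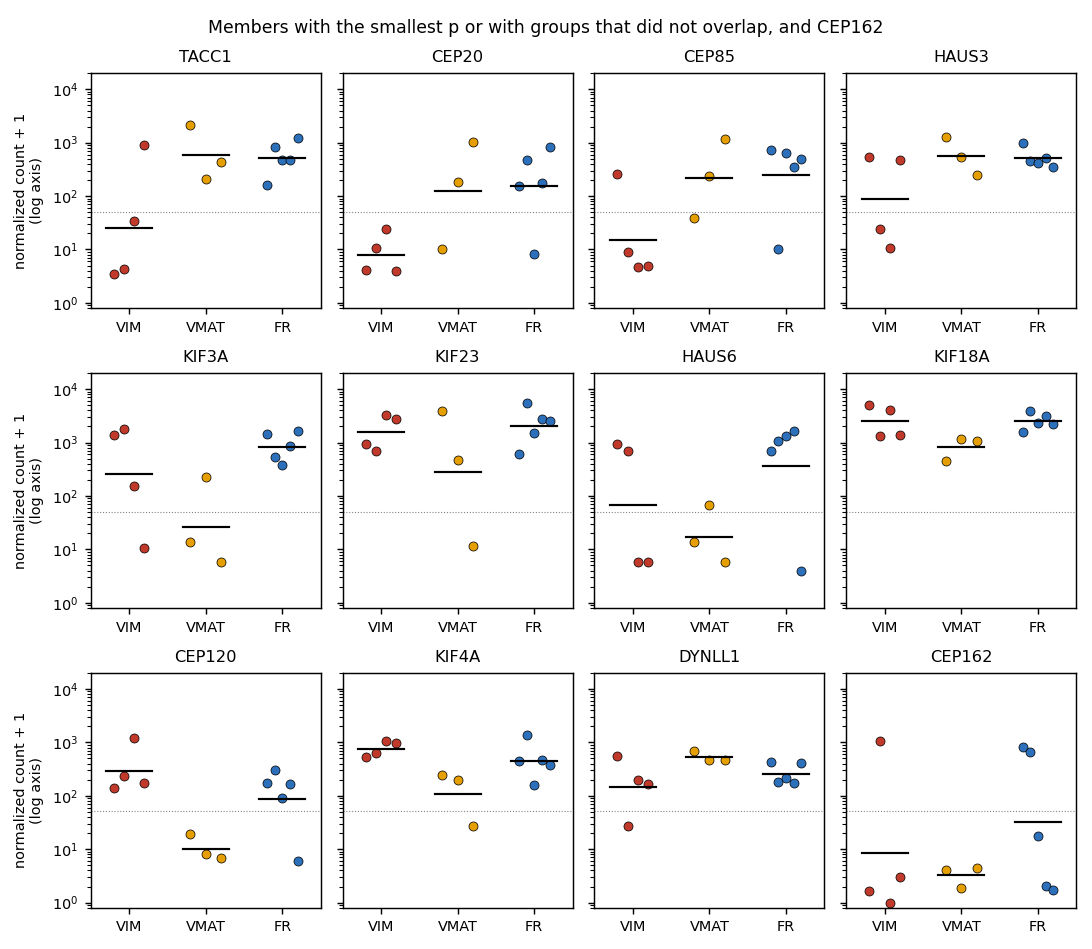
Normalized count + 1 (log axis) in each library, by group, for genes with the smallest p in a comparison, for DYNLL1 and for CEP162, with the mean of the log values as a bar and a dotted line where the count reaches 50. KIF3A and KIF18A are lower in all VMAT than in all FR libraries, CEP120 and KIF4A are higher in all VIM than in all VMAT libraries, and for TACC1, CEP85 and HAUS6 at least 1 library lies with the other group.

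Other genes of the spindle were taken from a list of 63, of which 30 had a name. Of these, 9 were present in all 12 libraries, among them AURKA, the kinase that builds spindle poles, at 9666 to 48388, TPX2, its activator, at 727 to 5303, and PRC1, which bundles microtubules, at 970 to 7593. In limma, 0 of the 30 were called in any comparison. At an unadjusted p under 0.05, PRC1 was lower in VIM than in FR (log2FC -0.97 ± 0.47, adjusted p = 0.902), and SGO1, which protects cohesion at the centromere, and ECT2, a regulator of cytokinesis, were lower in VMAT than in FR (-2.39 and -2.29, adjusted p = 0.95 for both). The background of lower genes at that level was the one given above, 1.66% of all genes tested and 3.27% of the genes with a name for VIM against FR, and 1.22% and 3.62% for VMAT against FR. No gene of this list was higher at that level in VIM or VMAT vs. FR, and 0 were at that level in VIM vs. VMAT. These names came from the same tables, so directions against FR are a description here as well.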

How the data were processed

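Pooled horse oocytes were sequenced with a 3′ kit and unique molecular identifiers. The authors trimmed the reads (Trim Galore 0.6.7), mapped them to EquCab3.0 (STAR 2.7.10b), processed the identifiers (UMI-tools 1.1.2), counted reads per gene (RSEM 1.3.1), removed 1 VMAT sample and deposited a signal per gene: the counts divided by 1 DESeq2 size factor per library. All values (100%, tolerance 0.001) were whole multiples of 1 step per library, which gave back whole reads for edgeR and DESeq2.

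limma 3.58.1 in R 4.3.3 (eBayes with trend) was run on log2 values with a pseudocount of 1, for the libraries of each comparison, on genes above 0 in at least as many libraries as the smaller group (4, 3 and 3), with p-values adjusted over all genes tested. Exact permutation tests used all 126, 56 or 35 splits. Their p-values were not adjusted, and most were for genes picked by their limma p or after their values were seen. They are therefore no separate support for a difference. edgeR 4.0.16, DESeq2 1.42.0, pseudocounts of 0.5 and 10, other filters, scalings and models, and leaving out each library were alternatives. The code was tested on simulated data with 200 genes changed by a known fold in each comparison. At a dispersion of 0.1, every tool recovered all 200. At a dispersion of 3, limma and edgeR recovered 0, and DESeq2 recovered 13 to 16 with 92 to 137 false calls. Where the dispersion is that large, a count of 0 genes called says little about the genes. The dispersion of the data was not compared with these settings.

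Described in full were, the 4 genes with the lowest p of each comparison, in each role the genes with the smallest and largest standard deviation, and KIF3A and CEP20. DYNLL1, TUBA1C and CEP57 in VMAT vs. FR and TUBG1 in VIM vs. FR were added after their values were seen. The genes and lists were chosen with earlier results of these data known. Names came from the study's tables, whose fold changes were read only for a check of row order and whose p-values were not used. Chi-square per degree of freedom between replicates was at least 166. The reference used here pairs no Ensembl identifier with a symbol and holds no sequences, so names, positions and sequences from it were not used. Replicate numbers were not taken to pair libraries. The paper states that FR and VMAT oocytes were matured together. Which libraries shared a maturation was not given in the sources used here, and correlations between same-numbered libraries cannot show it.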

Additional observations from a re-analysis of the deposited data

Results flagged for a closer look

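For 23 genes described in full and for the number of genes present, the VIM and FR groups were tested for a single library far from the rest (Dixon's test at 95% on log2 values). Of 48 groups, 6 held such a library. Such a test flags 2.4 of 48 groups by chance, but the genes were chosen partly for a large spread or a small p, so the count of 6 is a description. VIM replicate 1 had CEP85 at a normalized count of 257 (others 3.62 to 8.15), and FR replicate 2 had it at 9.15 (others 356 to 735). HAUS6 was at 2.86 in FR replicate 5 (others 696 to 1626). VIM replicate 2 had CEP162 at 1084 (others 0 to 1.96). TUBG1 was at 1.21 in VIM replicate 3 (others 229 to 497) and at 118 in FR replicate 4 (others 1.68 to 5.39).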

How the results depend on the processing

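The number of the 69 genes called was 0 in all 3 comparisons under every alternative but DESeq2 on the recovered reads, which called 1 in VIM vs. FR (CEP20), 2 in VMAT vs. FR (CEP162 and HAUS6) and 3 in VIM vs. VMAT (CEP20, CEP120 and TUBA1C). The cause was not tested. With each library left out, 0 were called. Of the recalculated log2 fold changes of the genes with the smallest p, 0 changed sign, 237 kept their side of the threshold and 3 passed it, all with DESeq2. Apart from DESeq2 their adjusted p lay between 0.281 and 0.9998. The number of genes present in all 12 libraries was 17, and 24 and 13 at 20 and 100 in place of 50, 17 with equal column totals, 17 to 20 with each library left out, and 6 of the 24 genes named in the gene set tables, a shorter list chosen after seeing the data. The replicate block called 0 genes in all 3 comparisons. The deviations of same-numbered libraries correlated at -0.0305 to 0.0112, which cannot show whether they shared a maturation. The numbers were not taken as pairs, since the sources used here give no pairing. Searching names in the reference was not run, since it pairs none with these identifiers. Depth limits VMAT replicate 1 most, where 3 reads are a normalized count of 9.34.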

Other observations

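The library with the highest value of a gene was VMAT replicate 1 for 16 of the 69 genes and VMAT replicate 2 for 1, and for 23.3% and 0.467% of the genes with a name. These were the libraries with the smallest and the largest size factor, 0.321 and 7.98. The 69 genes took 1.64% to 3.02% of the reads of a library, with the highest share in FR replicate 2.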
